A study of Mus musculus with 5 samples.

Results

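Cluster 7 is 1 of the 13 numbered classes into which the authors sorted the Stat3 and glucocorticoid receptor (GR) binding regions of AtT-20 cells. Its members were taken by that number alone. They are 625 of the 5670 listed regions, or 11.02% (exact Clopper-Pearson 95% interval 10.2% to 11.9%), and each is a single position in the mouse build mm9. AtT-20 is an established mouse line used as a model of pituitary corticotrophs, the cells that produce ACTH. Binding was measured by chromatin immunoprecipitation and sequencing (ChIP-seq) in 4 ChIP libraries. These were Stat3 after leukemia inhibitory factor (LIF), Stat3 after dexamethasone (Dex) together with LIF, GR after Dex together with LIF, and GR after Dex alone. The control library used rabbit IgG on material from the different treatments. Agents were added for 20 min to cells of 1 line, and each library combined 5 independent ChIPs, so there is 1 library per group and no replicate. The sources used here do not say which factor or treatment cluster 7 stands for, and the list holds no signal per library, no sequence and no gene name.

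Stat3 is a transcription factor that becomes phosphorylated and enters the nucleus when LIF engages its receptor, and it binds DNA as a dimer. GR is a nuclear receptor that moves into the nucleus on binding a glucocorticoid such as Dex. It can bind DNA at its own palindromic element or be held at DNA through another factor. In corticotrophs the 2 pathways meet at Pomc, the gene of the ACTH precursor, which LIF stimulates and glucocorticoids repress. The series was designed to relate such direct and indirect recruitment of the 2 factors to transcription. What the deposited list allows for cluster 7 is a description of where its regions lie and which other classes lie beside them.

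Cluster 7 regions occurred on all 20 chromosomes of the list. They ranged from 9 on chromosome 14 and 10 on the X chromosome to 53 on chromosome 2. Relative to the length spanned by listed regions, they were densest on chromosome 19 (0.490 per Mb) and sparsest on the X chromosome (0.0628 per Mb), against 0.247 per Mb over all chromosomes. As a share of the listed regions of each chromosome, cluster 7 held between 8.61% and 17.1%, with a median of 10.97%. The share was highest on chromosome 13, with 34 of 199 regions (17.1%, interval 12.1% to 23.0%), and on chromosome 19, with 28 of 164 (17.1%, 11.7% to 23.7%). These were the only 2 of the 20 chromosomes whose interval left out the 11.02% of the whole list, and no interval lay below it. With each group of cluster 7 regions linked at 10 kb counted once, chromosome 19 stood at 16.0% (10.8% to 22.6%) and the list at 10.5%. That interval lay just above the list so counted, though it holds the 11.02% of the count by region. The lowest share was on chromosome 16, with 26 of 302 regions (8.61%, 5.70% to 12.4%). Chromosome 11, which carried the most listed regions, had 46 in cluster 7 (8.98%, 6.65% to 11.8%). The chromosome shares were not tested against each other.

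**Figure D1:**
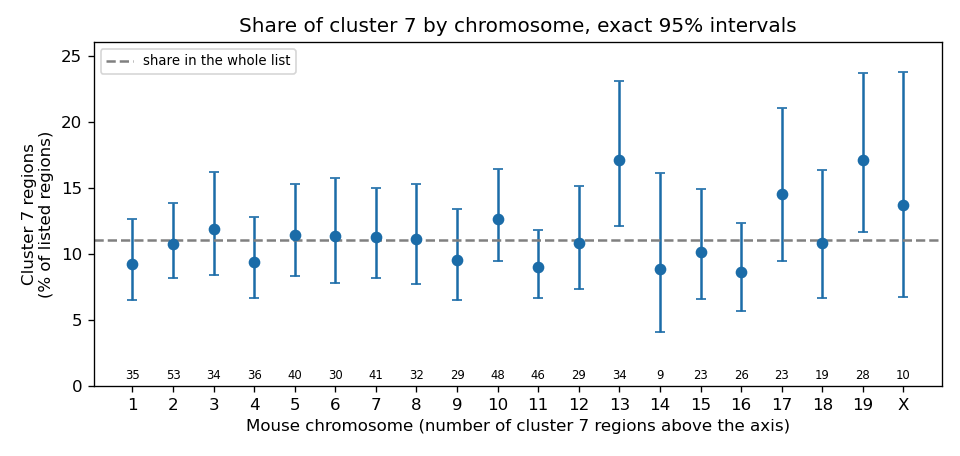
Share of the listed regions of each mouse chromosome that belong to cluster 7, in percent, with exact 95% binomial intervals as bars. The dashed line is the 11.02% of the whole list, and chromosomes 13 and 19, both at 17.1%, are the ones whose bars lie above it.

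Most cluster 7 regions stood alone, as did most listed regions. A neighbour is here another listed region of any class at most 10 kb away. Of the 625 regions, 167 had one (26.7%, interval 23.3% to 30.4%) and 458 (73.3%) had none. In the 5045 regions outside the class the share with a neighbour was 29.8%. Cluster 7 differed from it by -3.07 percentage points (Newcombe 95% interval -6.63 to 0.741). The share was 24.8% in cluster 3, the largest class with 2465 regions, and the difference of 1.89 percentage points had a Newcombe 95% interval from -1.86 to 5.86. It was 26.4% in cluster 2, a class of similar size with 658 regions (difference 0.276 points, -4.55 to 5.11). Cluster 6, with 629 regions, was more crowded at 40.9%, so cluster 7 lay 14.1 points below it (difference -14.1, -19.2 to -8.92). In how often its regions had company, cluster 7 was thus not distinguishable from clusters 2 and 3 and lay below cluster 6. Against cluster 3, the interval lay above 0 when regions of the same class within 1 kb were merged (difference 3.94 points, 0.277 to 7.84). It also did so when each group of same-class regions linked at 10 kb was represented by 1 region (4.73 points, 1.13 to 8.60). Both alternatives give less weight to same-class neighbours by construction. Such neighbours within 10 kb were found for 14.5% of cluster 3 and 9.44% of cluster 7. How far this moved the difference was not tested. Intervals here and below cover counting error only, and they treat regions as independent although neighbours are not.

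The distance from a cluster 7 region to the nearest listed region had a median of 49.96 kb, with quartiles of 8.61 kb and 167 kb. The median was 50.6 kb for cluster 3, 45.3 kb for cluster 2 and 19.1 kb for cluster 6. The closest neighbour of all was a cluster 6 region 200 bp away, at position 106521125 on chromosome 11, beside the cluster 7 region at 106520925. At the other extreme, the region at 54746515 on chromosome 8 had no listed region within 5429 kb. Within 1 Mb either side, a cluster 7 region had a median of 8 other listed regions, 3 of them in cluster 3 by the median, and 15 cluster 7 regions had none. In cluster 3 these medians were 8 and 4. Another listed region lay within 1 Mb for 97.6% of cluster 7, 96.8% of cluster 3 and 97.2% of the whole list. The broad surroundings of cluster 7 therefore held about as many regions as those of cluster 3.

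Where cluster 7 regions had close company, it was often of their own class. Of the 625 regions, 59 had another cluster 7 region within 10 kb (9.44%, interval 7.26% to 12.0%). Only 159 of the 5045 regions outside the class had one (3.15%, 2.69% to 3.67%), a difference of 6.29 points (4.17 to 8.87). Among regions with any neighbour the contrast was larger, at 35.3% of 167 cluster 7 regions against 10.6% of 1503 others (difference 24.8 points, 17.7 to 32.4). By chromosome, the share was higher in cluster 7 than in all other regions on 14 of 20, lower on 5, and at 0 in both on the X chromosome. Chromosome 17 had the highest value, with 7 of its 23 cluster 7 regions (30.4%) beside another. None of the 35 on chromosome 1 and none of the 34 on chromosome 13 had one. In all other regions the share was 3.70% on chromosome 17, 0.875% on chromosome 1 and 1.21% on chromosome 13.

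Clusters 2 and 6 show how this compares with classes of similar size. Own-class neighbours within 10 kb were found for 3.04% of cluster 2 (20 of 658), which was 6.40 points below cluster 7 (interval of the difference 3.79 to 9.16). They were found for 12.7% of cluster 6 (80 of 629), and the difference of -3.28 points from cluster 7 had an interval from -6.78 to 0.206. Among regions with a neighbour, the share with one of their own class was 35.3% in cluster 7, 31.1% in cluster 6 and 11.5% in cluster 2. Cluster 7 thus exceeded cluster 2 by 23.8 points (15.0 to 32.3), while its difference from cluster 6 was within counting error (-4.84 to 13.4 points). A pairing of like with like was seen in cluster 6 as well and was not particular to cluster 7. The order against cluster 2 did not hold at long range. By the median, the nearest own-class region was 711 kb away in cluster 7, 580 kb in cluster 2 and 501 kb in cluster 6. Within 1 Mb, 59.7% of cluster 7 and 62.9% of cluster 2 had an own-class region.

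The own-class pairs were spread over 15 chromosomes and were almost all pairs in the strict sense. Linked at 10 kb among themselves, cluster 7 regions formed 28 groups of 2 and 1 group of 3. The group of 3 lay on chromosome 17 at positions 84515885, 84516195 and 84519125, a stretch of 3240 bp with no listed region of another class. Its first and second regions, 310 bp apart, were also the closest pair of the class. The next closest were the pair at 5444555 and 5444895 on the same chromosome, 340 bp apart, and the pair at 85075365 and 85075755 on chromosome 16, 390 bp apart. The class had 31 such pairs up to 10 kb. In 7 of them the distance was at most 0.5 kb, 2 lay between 0.5 kb and 1 kb, 15 between 1 kb and 5 kb, and 7 between 5 kb and 10 kb. The median was 3240 bp, so most of these regions were several kilobases apart and not side by side.

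**Figure D2:**
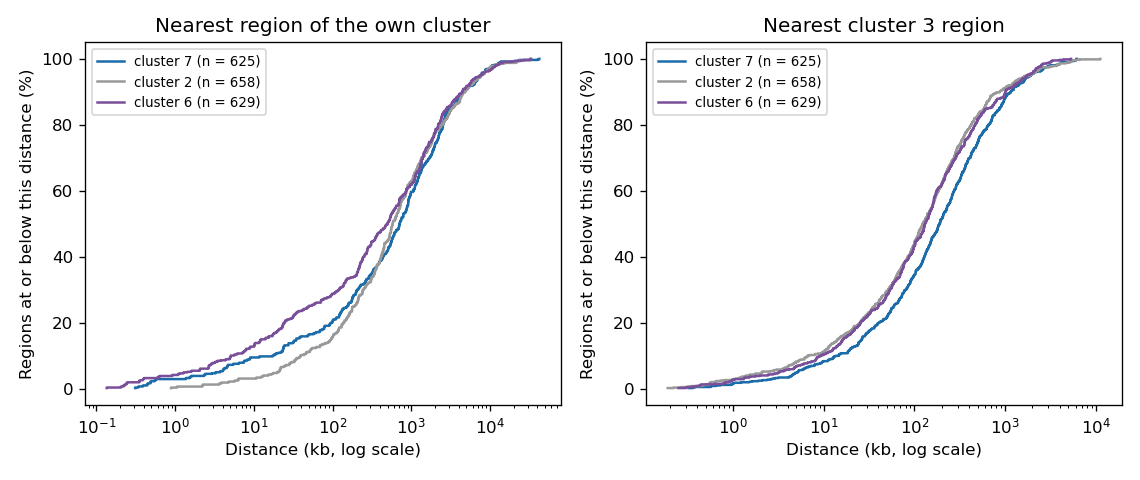
Cumulative share of regions, in percent, by the distance in kb (log scale) to the nearest region of the own class (left) and to the nearest cluster 3 region (right), for clusters 7, 2 and 6. Below 10 kb on the left, cluster 7 (9.44%) lies between cluster 6 (12.7%) and cluster 2 (3.04%). By the median on the left, cluster 7 is the farthest of the 3, at 711 kb against 580 kb for cluster 2 and 501 kb for cluster 6. On the right, the curve of cluster 7 runs below both, with a median of 188 kb against 124 kb for cluster 2 and 131 kb for cluster 6.

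By the median, cluster 3 regions were farther from cluster 7 than from the 11 other classes combined, but within 10 kb cluster 7 was not distinguishable from clusters 2 and 6 singly. The median distance from a cluster 7 region to the nearest cluster 3 region was 188 kb, against 118 kb from regions of the 11 classes other than 3 and 7, and 129 kb from one cluster 3 region to the next. Within 10 kb, 52 cluster 7 regions had a cluster 3 neighbour (8.32%, interval 6.28% to 10.8%), against 308 of the 2580 regions of those 11 classes (11.9%, 10.7% to 13.3%). The difference was -3.62 points (-5.94 to -0.912). Against cluster 2 alone, at 11.2%, it was -2.93 points (-6.19 to 0.345), and against cluster 6 alone, at 10.5%, it was -2.17 points (-5.44 to 1.08), so neither was distinguishable from 0. Within 50 kb both intervals lay below 0, at -7.72 points (-12.4 to -2.94) and -6.70 points (-11.5 to -1.90). Against the 11 classes combined, the difference widened to -10.4 points within 50 kb (-13.9 to -6.53) and -11.4 points within 100 kb (-15.5 to -7.11). Within 1 Mb it was -2.34 points (-5.31 to 0.249), when 88.2% of cluster 7 had a cluster 3 region in reach. At 10 kb the difference was not distinguishable from 0 without chromosome 11 (-2.44 points, -4.84 to 0.381) or without pairs under 1 kb (-2.27 points, -4.36 to 0.225).

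The direction of this contrast was not the same on all chromosomes. The counts per chromosome were small, and chromosomes were not tested against each other. Cluster 7 had a cluster 3 neighbour within 10 kb less often than the 11 other classes on 15 of the 20 chromosomes and more often on 5. On chromosome 11 the shares were 3 of 46 cluster 7 regions (6.52%) against 22.5% of the other classes. Chromosome 19 went the opposite way, with 7 of 28 (25%) against 7.14%. No cluster 7 region of chromosomes 13, 14, 18 or X had a cluster 3 neighbour. These chromosomes held 34, 9, 19 and 10 cluster 7 regions. In the 11 other classes the share there was 7.89%, 16.3%, 4.17% and 3.23%. With so few regions, the absence of such neighbours does not set cluster 7 apart.

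The contrast was smaller relative to its error when only regions with a neighbour were compared. Among these, 31.1% of cluster 7 (52 of 167, interval 24.2% to 38.8%) and 34.6% of the 11 other classes (308 of 891) had one in cluster 3. This difference of -3.43 points was within counting error (-10.7 to 4.56). Cluster 2 stood at 42.5%, above cluster 7 (difference -11.4 points, -21.3 to -1.15), and cluster 6 at 25.7% (difference 5.46 points, -3.19 to 14.3). The class that stood apart was cluster 3, where 58.3% of regions with a neighbour had one of their own class. On this measure cluster 7 was not distinguishable from the 11 other classes combined.

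The make-up of all close partners shows the same order. Counted from the side of cluster 7, there were 236 partners within 10 kb, in 205 pairs, each pair of the class with itself counting from both sides. Cluster 7 gave 26.3% of these partners, cluster 3 gave 24.2%, cluster 6 gave 18.6% and cluster 2 gave 11.4%, against 11.02%, 43.5%, 11.1% and 11.6% of the list. Cluster 6 was thus the most frequent partner class after clusters 7 and 3. By region, 39 of the 625 had a cluster 6 neighbour (6.24%), close to the 5.99% of all regions outside the class (difference 0.254 points, -1.53 to 2.52). This lay above the 2.72% of cluster 3 regions (difference 3.52 points, 1.73 to 5.77) and below the 9.11% of the 11 other classes, which include cluster 6 itself (difference -2.87 points, -4.89 to -0.452). Cluster 2 neighbours were about as frequent in cluster 7 as in cluster 3, at 4.32% and 3.53% (difference 0.791 points, -0.767 to 2.79). Clusters 1, 4 and 5 gave 1.69%, 2.97% and 5.08% of the partners, against 3.49%, 5.86% and 6.65% of the list. Among partners of the 11 other classes, which include these clusters themselves, they made up 1.88%, 8.41% and 15.0%. No cluster 10 region lay within 10 kb. With only 6 such regions in the list (0.106%), this does not set cluster 7 apart.

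**Figure D3:**
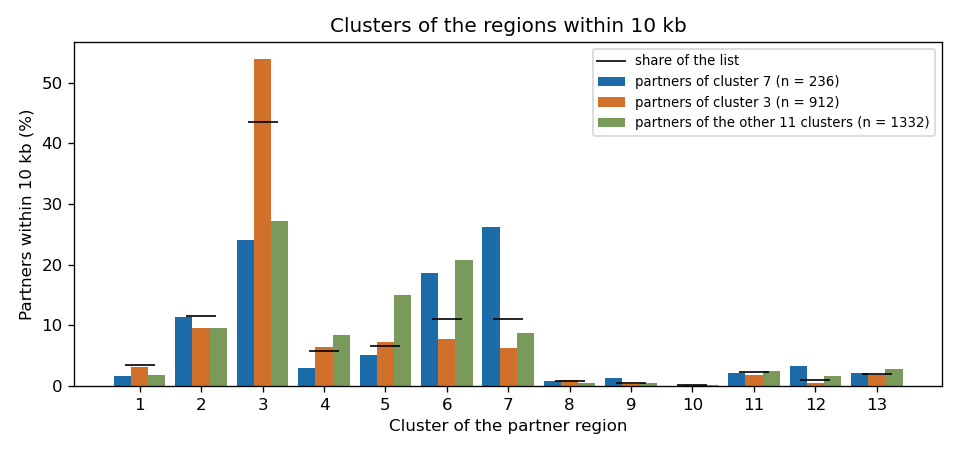
Share of partner regions within 10 kb, in percent, by the partner's cluster number, for cluster 7, cluster 3 and the other 11 clusters together; black marks give each cluster's share of the list. The partners of cluster 7 are led by cluster 7 itself (26.3%), and both cluster 7 and the other 11 clusters lie below the list's 43.5% for cluster 3.

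The 2 patterns, few cluster 3 partners and many of the own class, are shares of the same partners, so they are not independent. Their reach differed in the band from 10 kb to 50 kb, where cluster 7 was only somewhat above its share of the list. In separate bands of distance, cluster 3 made up 15.5% of the partners of cluster 7 up to 1 kb, 26.97% from 1 kb to 10 kb and 28.3% from 10 kb to 50 kb. It then reached 44.3% from 50 kb to 100 kb, close to the 43.5% of the list, and stayed between 40.7% and 44.7% in the bands out to 2000 kb. The low share of cluster 3 around cluster 7, relative to the list, was thus seen up to 50 kb. Partners of the 11 other classes combined also lay below the list, at 23.8% up to 1 kb, 28.6% from 1 kb to 10 kb and 36.5% from 10 kb to 50 kb. Cluster 7 itself made up 31.0% of its partners up to 1 kb (18 of 58), 24.7% from 1 kb to 10 kb (44 of 178) and 13.3% from 10 kb to 50 kb (50 of 375). Beyond 50 kb its share lay between 9.04% and 12.998%, around its 11.02% of the list. Cluster 6 showed a similar course for cluster 3 partners, with 16.0%, 18.9%, 25.5% and 37.8% in the first 4 bands. Partners of cluster 2 included 35.3% cluster 3 regions up to 1 kb and 42.7% from 10 kb to 50 kb. The shares by band count pairs that share regions, so they are a description without a test.

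**Figure D4:**
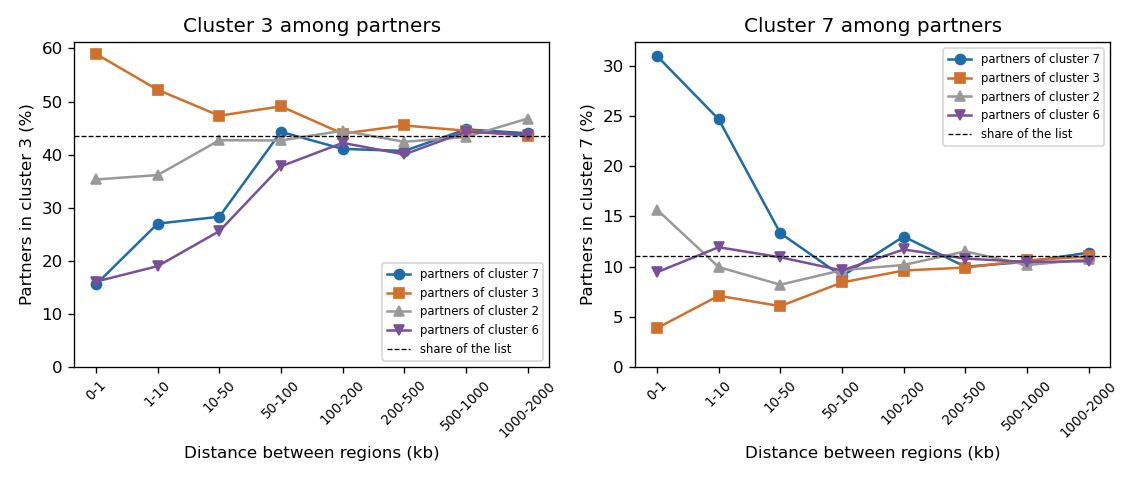
Share of partner regions in cluster 3 (left) and in cluster 7 (right), in percent, by the band of distance in kb, for partners of clusters 7, 3, 2 and 6; dashed lines give the share of the list. Relative to the list, partners of cluster 7 hold few cluster 3 regions up to 50 kb (15.5% to 28.3%), as do those of cluster 6 (16.0% to 25.5%). They hold many of cluster 7 up to 10 kb (31.0% and 24.7% for partners of cluster 7).

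The single nearest region, at any distance, was of cluster 7 for 120 cluster 7 regions (19.2%, interval 16.2% to 22.5%) and for 10.03% of all others, a difference of 9.17 points (6.15 to 12.5). It was of cluster 3 for 225 (36.0%, 32.2% to 39.9%), against 37.2% in the 11 other classes (difference -1.21 points, -5.33 to 3.05) and 47.6% in cluster 3 itself (difference -11.6 points, -15.8 to -7.31). A nearest region of the own class was found for 13.2% of cluster 2, 5.98 points below cluster 7 (1.95 to 10.02), and for 17.3% of cluster 6, within counting error of cluster 7 (difference 1.87 points, -2.41 to 6.15). In cluster 3 that share was the 47.6% given above. When the nearest region lay over 100 kb away, as it did for 225 cluster 7 regions, it was of cluster 3 in 43.1%, near the list's share.

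Close contacts between clusters 7 and 3 did occur. There were 57 pairs within 10 kb, 9 of them within 1 kb, with a median of 4555 bp. The closest was on chromosome 5, where a cluster 3 region at 122764830 and a cluster 7 region at 122765155 lay 325 bp apart. On chromosome 16 the cluster 3 region at 57685965 lay 360 bp from the cluster 7 region at 57686325, and on chromosome 2 the pair at 129526710 (cluster 3) and 129527085 (cluster 7) was 375 bp apart. On chromosome 19, 5 regions between 5846005 and 5850270 had the order cluster 3, 5, 7, 3 and 7. The 2 classes were therefore not mutually exclusive at short range.

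Of the 137 groups of 2 or more listed regions, linked at 10 kb, that contained cluster 7, 88 had no cluster 3 region and 49 had at least 1. Groups of cluster 7 alone numbered 16, with 33 regions in all. Most groups were small, 96 of them with 2 regions, and the largest had 7. Such groups were not counted for the other classes, so the counts do not set cluster 7 apart. By region, 31.1% of cluster 7 regions with a neighbour within 10 kb had one in cluster 3. The share was 34.6% in the classes other than 3 and 7 combined, a difference within counting error as given above.

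In the order of the list, 449 of the 625 cluster 7 regions had no other of the class directly before or after them. There were 68 runs of 2, 12 of 3 and 1 of 4. A class that makes up 11.02% of a list will mostly have other classes beside it. Runs were not counted for the other classes, so these numbers do not show a trait of cluster 7. The run of 4 lay on chromosome 1 between 93333075 and 93945890, where no other listed region fell. The fullest 1 Mb stretch, named after its values were seen, was on chromosome 19 between 10053555 and 10722635, with 6 cluster 7 regions among 18, of which 4 were in cluster 3. On chromosome 10, 5 of the 8 regions between 41265565 and 41812525 were of cluster 7 and 1 was of cluster 3. These 3 stretches spanned between 547 kb and 669 kb. Another stretch of chromosome 10, from 58733135 to 59729705 (997 kb), also held 5 cluster 7 regions, but among 20, of which 2 were in cluster 3. The region farthest from another of its class was at 121484255 on chromosome 14, at 42393 kb.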

How the data were processed

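The authors deposited 1 list of points sorted into numbered clusters, which the labels of the 4 ChIP libraries name. Per the submitters' processing notes, Bowtie, MACS 1.3.7.1 and the build mm9 were used, and per the labels' protocols reads were 36 bp. Not given in the sources used here are the thresholds, the use of IgG, the merging of libraries and the method of clustering. Start and end are identical in the 5670 entries, and whether positions count from 0 or 1 is not stated. Cluster numbers are the authors' classes, not measurements. Depth is unknown.

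The members were chosen, and the comparisons set, with earlier results of these data known. Distances, neighbours within 10 kb, partners and runs were counted in Python 3.11.15 (pandas 2.3.3), after a check of the counting on simulated positions. Shares have exact Clopper-Pearson intervals (scipy 1.17.1) and differences Newcombe intervals (statsmodels 0.14.6), both at 95%. A difference whose interval holds 0 was taken as not distinguishable from 0. No p-value was computed, because regions are not replicates. Regions were named by rule (groups of 3, closest pairs, closest to cluster 3, most isolated), and runs and stretches after their values were seen. Start sites, motifs, sequences and genes were not analysed, since no genome or annotation of mm9 was used here, and the fixed gene rule therefore named none.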

Additional observations from a re-analysis of the deposited data

How the results depend on the processing

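Alternatives were neighbour distances of 1, 50 and 100 kb, leaving out chromosome 11, merging same-class regions within 1 kb, leaving out pairs within 1 kb, and taking 1 region per group of the same class linked at 10 kb; chosen after seeing the data were the last, leaving out pairs within 1 kb for the share with any neighbour, and all alternatives for differences and for cluster 3 and cluster 7 neighbours. No direction reversed among values distinguishable from 0. Within 1, 50 and 100 kb, cluster 7 regions with any neighbour were 8.64%, 50.1% and 64.0% (26.7% at 10 kb), those with a cluster 3 neighbour 1.44%, 21.8% and 34.4% (8.32%), and those with a cluster 7 neighbour 2.88%, 16.5% and 20.6% (9.44%). Cluster 3 was 15.5% of partners within 1 kb and 32.9% within 100 kb (24.2%), and cluster 7 was 18.3% within 50 kb and 15.1% within 100 kb (26.3%). Without pairs under 1 kb, 20.6% had any neighbour and 6.88% a cluster 7 neighbour. With merging, 6.82% had a cluster 7 neighbour and cluster 7 was 20.0% of partners. With 1 region per group, 23.0% had a neighbour. The lower share of cluster 3 neighbours than in the 11 other classes was no longer distinguishable from 0 without chromosome 11 (-2.44 points) or without pairs under 1 kb (-2.27 points), and was under the other 5 alternatives. The excess of cluster 7 neighbours kept an interval above 0 under all 6 alternatives run, at 2.13 to 7.92 points. Taking 1 region per group was not run for this excess. Each own-class pair counts from both sides, so the intervals of the excess can be too narrow. The difference in any neighbour from cluster 3 became distinguishable from 0 with merging (3.94 points) and with 1 region per group (4.73 points), and that from all other regions, -3.07 points (-6.63 to 0.741), within 50 kb (-4.83 points) and 100 kb (-5.18 points). The causes were not tested. Longer distances admit more pairs by construction. Merging and 1 region per group give less weight to same-class neighbours by construction, and these were more frequent in cluster 3 than in cluster 7. Values that stayed within their intervals were the size of the class (with merging and without chromosome 11), the cluster of the nearest region (without chromosome 11, the 1 alternative run) and, with groups counted once, the share of cluster 7 among the listed regions of chromosomes 13 (17.1%) and 19 (16.0%). Alternatives on start sites and motif windows were not run, as no genome of mm9 was used here. No paired analysis was possible because each group is 1 library and the list pools them. The unknown depth limits how many regions each library could give.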

Other observations

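Every listed position is a multiple of 5 bp, and the last digit was unevenly divided. It was 5 in 70.1% of cluster 7 (438 of 625, interval 66.3% to 73.6%) and in 75.3% of cluster 3, a difference of -5.25 points (-9.31 to -1.38). Clusters 2 and 6 had 75.7% and 76.6%, and the list as a whole 74.6%. Clusters 1, 8, 9 and 12 had lower values than cluster 7, at 65.2%, 63.8%, 62.1% and 69.5%, but their intervals all hold its 70.1%. The intervals of clusters 8 (48.5% to 77.3%), 9 (42.3% to 79.3%) and 12 (56.1% to 80.8%) also hold the 74.6% of the list. What sets this digit was not tested.

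The region numbers follow the positions along each chromosome, so the 204 numbers up to 5874 that have no entry can be placed between listed regions. Of the cluster 7 regions, 28 (4.48%, interval 3.00% to 6.41%) stood directly beside such a number, against 302 of the other regions (5.99%, 5.35% to 6.68%). The neighbour counts of these regions can be too low.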
